A study of Mus musculus with 9 samples.

Results

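The 9 UDP-glucuronosyltransferase (UGT) genes Ugt1a1, Ugt2a3, Ugt2b1, Ugt2b5, Ugt2b34, Ugt2b35, Ugt2b36, Ugt2b37 and Ugt2b38 were followed in mouse liver RNA. They were taken by name from the 22 UGT genes with a row among the 54007 rows of the table, through their Ensembl identifiers. The list was chosen with earlier results of these data known, so counts and medians over it are a description. Liver of C57BL/6 mice was sequenced at postnatal day 98, with 3 libraries in each of 3 groups. Control livers came as replicates 1, 2 and 4. A high-fat diet alone (HFD) was given to the mice behind replicates 1, 2 and 3 of the next group, and the same diet with gavage of a gut bacterium, *Papillibacter cinnamivorans* (HFD+Pc), to those behind replicates 1, 3 and 4 of the last. Mice were 6 weeks old when divided into groups of 15. Neither the make-up of the diets nor a vehicle gavage is stated in the labels, nor is the number of mice behind a library, so a p-value here reflects only how these libraries vary.

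UGT enzymes sit in the membrane of the endoplasmic reticulum and attach glucuronic acid, taken from UDP-glucuronic acid, to bilirubin, steroids, bile acids, drugs and other small molecules. The conjugates are more soluble in water and leave the hepatocyte through transporters into bile or blood. Ugt1a genes share a set of 3′ exons, each with a first exon and promoter of its own, whereas the Ugt2b genes are separate genes that arose by duplication. Ugt1a1 is the enzyme that conjugates bilirubin.

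The family's copies limit how each gene can be read, so their sequences come first. Over representative GENCODE M21 transcripts, the Ugt2b5 transcript was 95.8% identical to that of Ugt2b38 and 94.1% identical to that of Ugt2b37, and Ugt2b37 and Ugt2b38 were 93.54% identical. These were the 3 pairs at 90% or more of the 13 member pairs that aligned over more than 90% of the shorter transcript. Of all windows of 100 bases in the Ugt2b5 transcript, 24.7% also occurred letter for letter in another gene, as did 24.2% of those of Ugt2b38 and 1.06% of those of Ugt2b37. For Ugt1a1, whose 3′ exons belong to the whole Ugt1a group, the share was 77.4%, and for Ugt2b1, Ugt2b35 and Ugt2b36 it was 0. How the authors' counting assigned reads from shared stretches is not given in the sources used here. The values of Ugt1a1, Ugt2b5, Ugt2b37 and Ugt2b38 thus carry an uncertainty that the spread between libraries does not show. Reads recovered from the deposited values came to 0 to 2 a library for Ugt1a8, with 58.2% of its 100-base windows shared. They came to 1 to 11 for Ugt1a2 (62.9% shared) and 1242 to 2940 for Ugt1a1. Reads of the shared 3′ exons were therefore not credited in full to every Ugt1a gene. Whether they were divided or left out was not tested, and leaving them out would lower the level of Ugt1a1 and the Ugt1a sums.

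**Figure D1:**
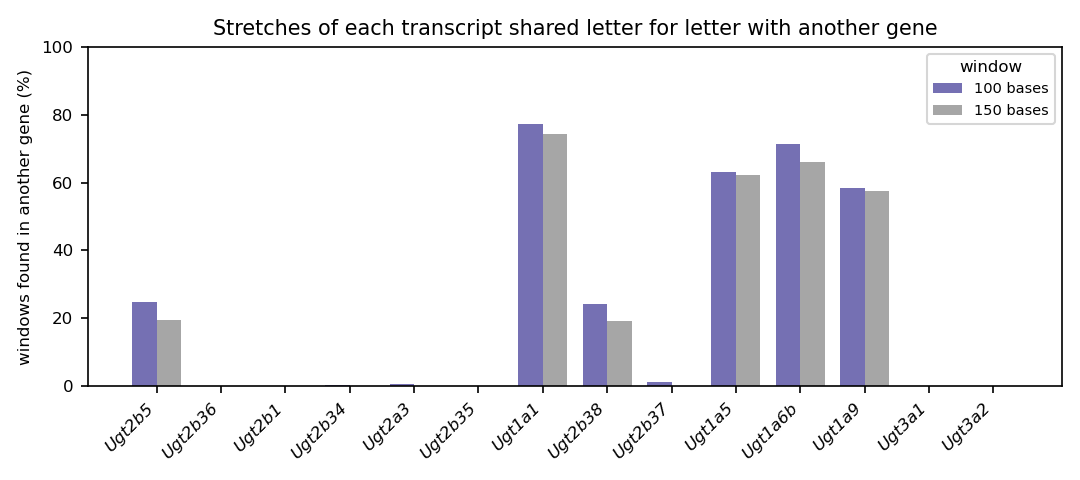
Percentage of all 100-base (purple) and 150-base (grey) windows of a representative transcript found letter for letter in another gene, for the 9 members and 5 other UGT genes. Ugt1a1 stands at 77.4% and 74.5%, Ugt2b5 and Ugt2b38 near each other at 24.7% and 24.2% for 100 bases, and Ugt2b1, Ugt2b35 and Ugt2b36 at 0.

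The promoters of the Ugt2b members show the same kinship and are printed because they carry a shared element. Each line holds the 80 bases from 100 to 21 bases before the RefSeq gene start in mouse assembly GRCm38.p6, read 5′ to 3′ on the gene's strand, with capitals marking a match. In the first 7 the capitals mark GTTA, any 5 bases and TAAC, letters that form an inverted repeat. In Ugt1a1 they mark, on the other strand, GTTAAT, any 1 base and ATT, 10 letters of a related repeat. Ugt2b5 lies at chr5:87140361-87140440 (minus strand), Ugt2b38 at chr5:87424224-87424303 (minus), Ugt2b37 at chr5:87254809-87254888 (minus) and Ugt2b36 at chr5:87092576-87092655 (minus). Ugt2b35 lies at chr5:87000760-87000839 (plus), Ugt2b34 at chr5:86906958-86907037 (minus), Ugt2b1 at chr5:86926524-86926603 (minus) and Ugt1a1 at chr1:88211859-88211938 (plus).
Ugt2b5: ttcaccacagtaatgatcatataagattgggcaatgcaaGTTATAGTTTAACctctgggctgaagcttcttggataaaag
Ugt2b38: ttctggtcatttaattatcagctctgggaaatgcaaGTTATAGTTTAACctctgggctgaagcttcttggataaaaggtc
Ugt2b37: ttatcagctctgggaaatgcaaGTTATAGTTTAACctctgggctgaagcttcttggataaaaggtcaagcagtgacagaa
Ugt2b36: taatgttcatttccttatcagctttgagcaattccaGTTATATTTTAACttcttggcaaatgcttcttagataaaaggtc
Ugt2b35: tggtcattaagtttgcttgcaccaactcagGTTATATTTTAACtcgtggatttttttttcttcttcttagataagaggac
Ugt2b34: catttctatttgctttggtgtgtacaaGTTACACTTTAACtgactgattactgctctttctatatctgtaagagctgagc
Ugt2b1: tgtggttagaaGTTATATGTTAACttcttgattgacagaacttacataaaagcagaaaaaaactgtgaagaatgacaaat
Ugt1a1: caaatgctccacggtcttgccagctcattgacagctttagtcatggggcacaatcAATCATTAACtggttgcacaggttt

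GTTA with TAAC after 5 bases, which reads the same on both strands, occurred in 7 of 7 Ugt2b promoters and in 109 of 32851 promoters of the table (0.332%), each searched over 300 bases. It began between 61 and 89 bases before the start in the 7. Of the 13 other UGT promoters in the table, 1 held it, that of Ugt3a1. GTTAAT with ATT after 1 base, searched on both strands, occurred in 3 of 8 Ugt1a promoters, Ugt1a1 among them, and in 0.399% of all promoters. Neither was found in the Ugt2a3 window. The letters were chosen after reading these promoters, the Ugt2b copies share ancestry, and a match describes letters only.

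Levels in the liver libraries are given in FPKM, fragments scaled by gene length and by the library's mapped fragments, as mean ± SD (n = 3 per group). Differences are in log2(FPKM + 1) ± SE from limma across the 10988 genes that reached 1 FPKM in 3 or more libraries, adjusted by Benjamini and Hochberg over all of these, with 0.05 as the threshold. All 9 members passed the filter. In gene-level FPKM the order by mean over the 9 libraries was Ugt2b5, Ugt2b36, Ugt2b1, Ugt2b34, Ugt2a3, Ugt2b35, Ugt1a1, Ugt2b38 and Ugt2b37. In control, the ranges over libraries overlapped between the neighbours Ugt2b5 and Ugt2b36, Ugt2b1 and Ugt2b34, Ugt2b34 and Ugt2a3, and Ugt2b35 and Ugt1a1. Read within each library, Ugt2b5 exceeded Ugt2b36 in all 9, and in the 3 control libraries Ugt2b1 exceeded Ugt2b34 and Ugt2a3 exceeded Ugt2b34. The order of Ugt2b35 and Ugt1a1 differed between control libraries. Ugt2b38 and Ugt2b37 lay apart at the bottom, with 9.47 to 31.6 and 1.06 to 2.73 FPKM over all libraries.

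The reads recovered from the FPKM steps came to 15224275 to 16976764 per library, in genes with an annotated length and whole reads in all 9 libraries. Alb was not among these genes. The library totals implied by the FPKM scaling were 107% (HFD+Pc replicate 3) to 118% (HFD replicate 1) of the recovered ones. Behind a member there were at least 1242 reads in every library, other than for Ugt2b38 (324 to 1025) and Ugt2b37 (34 to 95). In a gene of 1 kb, 3 reads correspond to 0.160 to 0.179 FPKM, a limit that covers counting error only. All 19 hepatocyte markers were present, and 6 kidney tubule markers summed to at most 0.0958 FPKM in any library. The replicate numbers do not pair the libraries. HFD replicate 3 stood apart from HFD replicates 1 and 2 in some genes, among them Ugt1a5, and its part in a result is given there.

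Livers of HFD and control mice were compared first, which asks what differs with the diet. Ugt2b5, Ugt2b35 and Ugt2b37 rose and 0 of the 9 members fell by limma (7 higher and 0 lower at an unadjusted p under 0.05). Limma-voom on recovered reads called 6 higher and 0 lower, with Ugt2b5 and Ugt2b35 among the 6 but not Ugt2b37. Of all genes tested, 9.97% were called in this comparison (4.61% higher, 5.35% lower). That split was 507 higher and 588 lower, against 590 and 395 after rescaling to TPM and 763 and 496 by limma-voom. The members' median difference was 0.39, and the median of all tested genes was 0.00 to 2 decimals. Level ranges did not overlap between the groups in 7 of 9 members, all higher in HFD, beside 32.9% of all tested genes (16.5% higher, 16.4% lower). The count of 3 fell to between 0 and 2 in the 9 fits that left out 1 library. The members were chosen with results known, and of the 6 testable UGT genes outside the list 1 rose and 2 fell by limma.

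**Figure D2:**
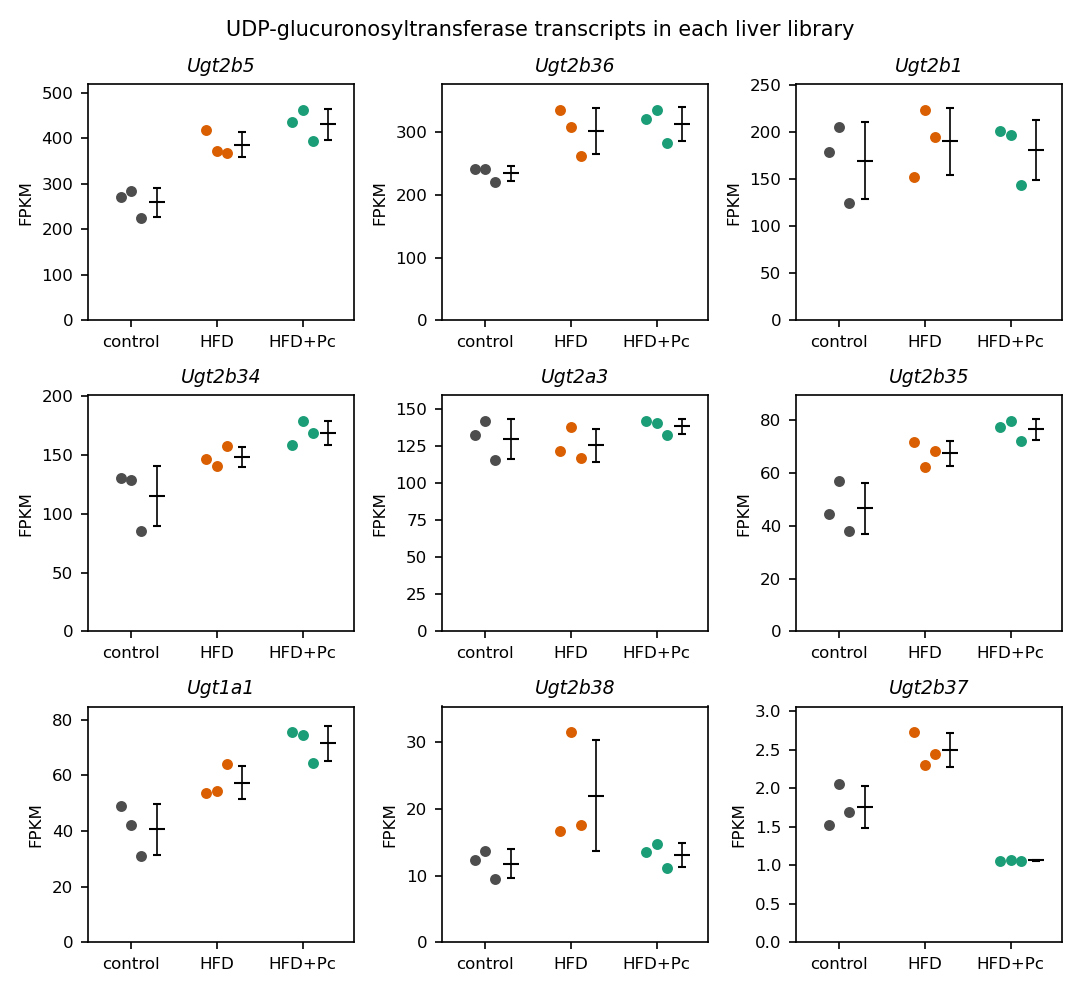
FPKM of each member in the 9 libraries (points, coloured by group; horizontal axis, group), with the group mean ± SD (n = 3) beside them; each vertical axis starts at 0 and has its own range. Ugt2b5 is higher in all HFD and HFD+Pc libraries than in control, Ugt2a3 and Ugt2b1 overlap throughout, and the 3 HFD+Pc libraries of Ugt2b37 lie at 1.06 to 1.07 FPKM, below all others.

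Ugt2b5, the most abundant of the 9, held 272, 284 and 224 FPKM in control replicates 1, 2 and 4. It held 418, 372 and 369 FPKM in HFD replicates 1, 2 and 3, and 436, 463 and 394 FPKM in HFD+Pc replicates 1, 3 and 4. Every library on the high-fat diet, with or without the bacterium, lay above every control library, and the HFD and HFD+Pc ranges overlapped. The mean of HFD was 1.49 times that of control, a difference of 0.57 ± 0.12 (limma adjusted p = 0.0216). That call was lost without control replicate 1, control replicate 4 or HFD replicate 1, where the highest limma adjusted p was 0.0640. Against control, HFD+Pc was higher by 0.73 ± 0.12 (limma adjusted p = 0.00415), a call that stood in all 9 fits that left out 1 library.

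Ugt2b35, a member with no 100-base window shared with another gene, also rose in HFD. It held 44.5, 56.96 and 38.1 FPKM in control, 71.6, 62.2 and 68.1 FPKM in HFD, and 77.4, 79.6 and 71.97 FPKM in HFD+Pc. The 3 groups did not overlap, with control lowest and HFD+Pc highest. HFD exceeded control by 0.54 ± 0.13 (limma adjusted p = 0.0374). That call was lost in 7 of 9 fits, those without control replicates 1 or 4, any HFD library, or HFD+Pc replicates 3 or 4 (highest limma adjusted p = 0.103). HFD+Pc exceeded control by 0.72 ± 0.13 (limma adjusted p = 0.00682), in all 9 such fits as well. HFD+Pc and HFD differed by 0.18 ± 0.13 (limma adjusted p = 0.569), which did not pass.

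Ugt1a1, which conjugates bilirubin, held 48.9, 42.00 and 30.9 FPKM in control, 53.6, 54.2 and 64.2 FPKM in HFD, and 75.6, 74.5 and 64.2 FPKM in HFD+Pc. The HFD libraries lay above control, and those of HFD+Pc above HFD by the narrowest margin, since HFD replicate 3 and HFD+Pc replicate 4 round to the same value. The HFD difference from control was 0.51 ± 0.16 and did not pass (limma adjusted p = 0.0704), although limma-voom on recovered reads called it. The HFD+Pc difference from control was 0.82 ± 0.16 (limma adjusted p = 0.00745), a ratio of means of 1.76, and it passed without each library in turn. Between HFD+Pc and HFD the difference was 0.31 ± 0.16 (limma adjusted p = 0.372).

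Ugt2b36, the second most abundant member, held 241, 241 and 221 FPKM in control, 335, 308 and 262 FPKM in HFD, and 321, 336 and 282 FPKM in HFD+Pc. Control lay below both other groups, which overlapped. The difference was 0.36 ± 0.12 for HFD against control (limma adjusted p = 0.0834) and 0.41 ± 0.12 for HFD+Pc against control (limma adjusted p = 0.0316). The second call was lost without any one of the 3 control libraries or HFD+Pc replicates 1 or 3 (highest limma adjusted p = 0.112), and after rescaling to TPM.

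Ugt2b34 held 130.3, 129 and 85.3 FPKM in control, 146, 141 and 158 FPKM in HFD, and 158, 179 and 169 FPKM in HFD+Pc. The 3 groups were in that order without overlap, HFD and HFD+Pc by a narrow margin, and control replicate 4 was the lowest library. HFD exceeded control by 0.39 ± 0.15 (limma adjusted p = 0.136). HFD+Pc exceeded control by 0.58 ± 0.15 (limma adjusted p = 0.0259), which was lost without HFD+Pc replicates 3 or 4 (highest limma adjusted p = 0.0871).

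Ugt2b38, the close copy of Ugt2b5, had 12.3, 13.6 and 9.47 FPKM in control, 16.7, 31.6 and 17.6 FPKM in HFD, and 13.5, 14.7 and 11.1 FPKM in HFD+Pc. HFD lay above both other groups, led by HFD replicate 2, and the other groups overlapped. The differences of 0.80 ± 0.23 for HFD against control (limma adjusted p = 0.0590) and -0.66 ± 0.23 for HFD+Pc against HFD (limma adjusted p = 0.223) did not pass. Only limma-voom, among the other settings at the threshold of 0.05 with all libraries, called the first.

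Ugt2b37, the scarcest member, had 1.52, 2.05 and 1.69 FPKM in control, 2.73, 2.31 and 2.45 FPKM in HFD, and 1.06, 1.07 and 1.06 FPKM in HFD+Pc. HFD was highest, control in between and HFD+Pc lowest, with no overlap. These values rest on 178, 248 and 103 recovered reads summed over the 3 libraries of each group. The SD of HFD+Pc was 0.00712 FPKM, less than the 0.0847 to 0.0945 FPKM that 3 reads make in this gene. Counting error at 34 or 35 reads a library exceeds that SD, so the SE and limma p-values of Ugt2b37 may be too small. Since 1 FPKM was added before taking logs, the differences understate the ratios of means, which were 1.42 for HFD over control, 0.426 for HFD+Pc over HFD and 0.606 for HFD+Pc over control. The rise in HFD was 0.35 ± 0.09 (limma adjusted p = 0.0452) and was lost without any 1 of the 9 libraries (highest limma adjusted p = 0.133) and by limma-voom. Ugt2b5, with stretches identical to Ugt2b37, held 369 FPKM or more in every HFD library, and whether its reads entered the Ugt2b37 counts was not tested.

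Ugt2a3, whose human counterpart conjugates bile acids, was even across the groups, with 132, 142 and 115 FPKM in control, 121, 138 and 117 FPKM in HFD, and 142, 141 and 132 FPKM in HFD+Pc. All 3 groups overlapped, and the differences of -0.05, 0.14 and 0.09 (each ± 0.10, for HFD minus control, HFD+Pc minus HFD, and HFD+Pc minus control) did not pass. Ugt2b1 varied most within groups among the abundant members, with 179.5, 205 and 125 FPKM in control, 153, 224 and 195 FPKM in HFD, and 202, 197 and 144 FPKM in HFD+Pc. Its differences of 0.18, -0.07 and 0.10 (each ± 0.21) did not pass, and their signs changed with single libraries left out. For neither gene does this show that the groups are alike.

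**Figure D3:**
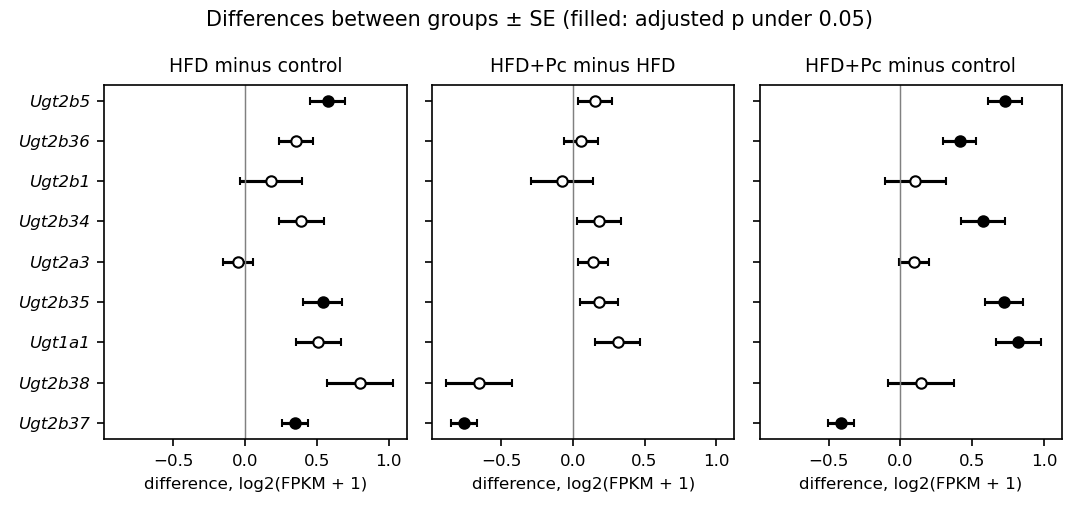
Difference between groups in log2(FPKM + 1) for each member, with its SE as a horizontal bar, in the 3 comparisons; filled points have a limma adjusted p under 0.05. HFD against control has 3 filled points, all above 0, HFD+Pc against HFD has 1, Ugt2b37 below 0, and HFD+Pc against control has 5 above 0 and Ugt2b37 below.

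HFD+Pc was then compared with HFD, which asks what differs with the bacterium on the same diet. Among the 9 members, 1 changed, Ugt2b37, which fell by 0.76 ± 0.09 on the log2 scale (limma adjusted p = 0.0132). Of all genes tested, 0.628% were called (0.182% higher, 0.446% lower), that is 20 higher and 49 lower, against 19 and 94 after rescaling to TPM. The Ugt2b37 call was lost without HFD replicate 2 or HFD+Pc replicates 3 or 4 (highest limma adjusted p = 0.0623). It rests on the few reads given above, so its SE may be too small. By limma-voom 0 members were called higher and 1 lower, again Ugt2b37. At an unadjusted p under 0.05 in the limma fit, 0 were higher and 2 lower. Differences were above 0 in 6 of 9 members, with Ugt2b36 (0.06 ± 0.12, limma adjusted p = 0.853) turning to -0.0043 after rescaling to TPM, and their median was 0.14 beside 0.01 for all tested genes. Groups did not overlap in 3 members higher in HFD+Pc (Ugt1a1, Ugt2b34 and Ugt2b35) and 2 lower (Ugt2b37 and Ugt2b38), beside 19.8% of all tested genes (10.2% higher, 9.56% lower).

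The last comparison, HFD+Pc against control, shares its libraries with the other two and is no separate evidence for them. Ugt2b5, Ugt2b35, Ugt1a1, Ugt2b34 and Ugt2b36 rose and Ugt2b37 fell, with 23.1% of all tested genes called (11.1% higher, 11.9% lower). Ugt2b37 was lower by a difference of -0.41 ± 0.09 (limma adjusted p = 0.0131), a call that stood without each library in turn but not by limma-voom. The members' median difference was 0.41, beside 0.01 for all tested genes. Groups did not overlap in 5 members higher and 1 lower in HFD+Pc, beside 42.8% of all tested genes (22.1% higher, 20.8% lower). The list was chosen with results of these libraries known, so its counts are a description.

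The summed level of the 9 members was 1063, 1116 and 851 FPKM in control, 1319, 1332 and 1252 FPKM in HFD, and 1426, 1485 and 1269.9 FPKM in HFD+Pc. All libraries on the high-fat diet exceeded all control libraries, and HFD and HFD+Pc overlapped. The ratio of means was 1.29 for HFD and 1.38 for HFD+Pc over control. Without Ugt2b5, the ratios were 1.22 and 1.28. Within the sum, Ugt2b5 made up 25.8% ± 0.480 in control, 29.7% ± 1.91 in HFD and 30.9% ± 0.316 in HFD+Pc, whereas Ugt2a3 made up 12.9% ± 0.585, 9.63% ± 0.622 and 9.95% ± 0.476. Control replicate 4 held the lowest sum. The sum of Ugt2b5, Ugt2b37 and Ugt2b38, which does not depend on how reads are divided among these copies apart from their lengths, was 274 ± 33.8, 411 ± 24.7 and 445 ± 36.8 FPKM. It would still depend on shared reads being dropped or counted more than once, which is not known.

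**Figure D4:**
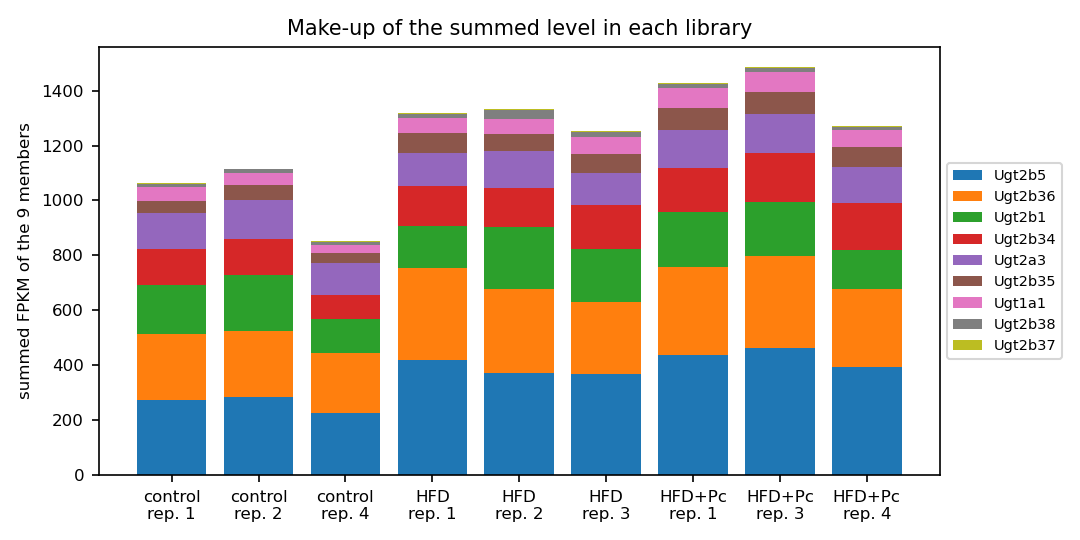
Summed FPKM of the 9 members in each library (bar height), divided by gene (colours). Control bars reach 851 to 1116 FPKM and the others 1252 to 1485 FPKM, with Ugt2b5, Ugt2b36 and Ugt2b1 at the base and Ugt2b37 too low to see.

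The summed FPKM of 19 hepatocyte markers was 74344 to 75731 in control, 56436 to 60110 in HFD and 63690 to 79324 in HFD+Pc. Alb, the most abundant of them, held 38648 FPKM in control and 26448 in HFD on average (limma adjusted p = 0.0540), whereas 5 of the 19 had a difference above 0 and limma called 1 lower, Apoa1. At an unadjusted p under 0.05, 1 was higher and 9 were lower in HFD. Limma-voom, which could test 18, called 0 higher and 3 lower. Endothelial markers summed to 100.2 to 113 FPKM in control, 69.9 to 88.1 in HFD and 80.4 to 82.2 in HFD+Pc, and all 10 were present. All 10 had a lower mean log level in HFD than in control, 9 at an unadjusted p under 0.05. Limma called 4 of them lower, Kdr, Stab2, Ptprb and Stab1. Adipocyte markers, 3 of 7 with a mean under 0.1 FPKM, summed to 0.505 to 1.20, 7.15 to 30.6 and 2.99 to 7.46 FPKM. Cfd made up most of the sum in HFD (21.8, 9.92 and 5.23 FPKM) and HFD+Pc (5.95, 2.33 and 5.20 FPKM). Adipoq, Retn, Plin1 and Lep were at 0 in every control and HFD+Pc library, and in HFD were highest in replicate 1. B and plasma cell markers, 1 of 7 with a mean under 0.1 FPKM, summed to 20.2 to 27.5 FPKM in control, 48.9 to 77.9 in HFD and 24.6 to 35.2 in HFD+Pc, and Igkc and Jchain were called higher in HFD by limma. Immediate early genes, which respond to handling, summed to 46.3 to 108 FPKM in control, 34.4 to 40.7 in HFD and 40.8 to 47.8 in HFD+Pc, with Dusp1 and Btg2 called lower in HFD. Egr1 of the same list went the other way, with means of 0.973 FPKM in control, 2.32 in HFD and 8.25 in HFD+Pc. Limma called Egr1 higher in HFD+Pc than in HFD and than in control. All 12 macrophage markers had a lower mean log level in HFD+Pc than in HFD (median difference -0.43), where limma and limma-voom called 0 and 6 had an unadjusted p under 0.05. In bulk RNA, fewer cells of a type and less RNA per cell cannot be told apart, and the part of these shifts in the member results was not tested.

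Among the 13 other UGT genes, 6 could be tested, 7 had a mean under 1 FPKM, and of those 7 Ugt2a1 and Ugt2a2 were listed at 0 in all libraries. Of their 100-base windows, 94.9% (Ugt2a1) and 94.4% (Ugt2a2) also occurred in another gene, and whether shared reads were left out of their counts was not tested. Of the 6 testable genes, 1 rose and 2 fell in HFD, and 3 rose and 1 fell in HFD+Pc against control. Limma called 0 between HFD+Pc and HFD (1 higher at an unadjusted p under 0.05, 0 by limma-voom). Ugt3a1, which uses another sugar donor than glucuronic acid, rose in HFD by 1.07 ± 0.14 (limma adjusted p = 0.00532) and in HFD+Pc against control by 0.87 ± 0.14 (limma adjusted p = 0.00378). It went from 24.03, 23.8 and 17.5 FPKM in control to 46.6, 48.3 and 44.5 FPKM in HFD and 40.8, 46.5 and 34.6 FPKM in HFD+Pc, with no control library above 24.03. Ugt3a2 held 103 to 139 FPKM in control and 153 to 191 FPKM in HFD+Pc, a difference of 0.54 ± 0.14 (limma adjusted p = 0.0240) that was lost without control replicates 1 or 4 or HFD+Pc replicates 1 or 3 (highest limma adjusted p = 0.0856).

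Of the Ugt1a genes that share 3′ exons with Ugt1a1, Ugt1a5 and Ugt1a9 fell in HFD by limma, and limma-voom called Ugt1a9 but not Ugt1a5. Of their 100-base windows, 63.1% (Ugt1a5) and 58.5% (Ugt1a9) also occurred in another gene, so the uncertainty given for Ugt1a1 holds for them too. Ugt1a9, an enzyme of phenol conjugation, held 19.02, 21.5 and 23.5 FPKM in control, 12.6, 8.59 and 8.91 FPKM in HFD, and 12.9, 10.3 and 14.6 FPKM in HFD+Pc. Control lay above both other groups, and the falls of 1.03 ± 0.16 in HFD (limma adjusted p = 0.00943) and 0.72 ± 0.16 in HFD+Pc (limma adjusted p = 0.0131) passed without each library in turn. Ugt1a5 held 32.7, 22.6 and 33.7 FPKM in control, 3.49, 5.16 and 19.4 FPKM in HFD, and 21.5, 21.3 and 23.9 FPKM in HFD+Pc, so HFD replicate 3 stood nearer to the other groups than to its own.

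Its HFD difference from control was -1.87 ± 0.46 (limma adjusted p = 0.0379) with HFD replicate 3 and -2.52 (limma adjusted p = 0.00268) without it, and the call was lost when any one of the 8 other libraries was left out (highest limma adjusted p = 0.123). HFD+Pc exceeded HFD in Ugt1a5 by 1.49 ± 0.46 (limma adjusted p = 0.174), and by 2.14 (limma adjusted p = 0.00289) without HFD replicate 3. Ugt1a6b, an enzyme of small phenols, rose in HFD+Pc against control by 0.43 ± 0.11 (limma adjusted p = 0.0244), a call lost without control replicates 1 or 4 or HFD+Pc replicates 1 or 4 (highest limma adjusted p = 0.0773). Of 100-base windows, 71.5% in Ugt1a6b and 100% in Ugt1a6a also occurred in another gene, so the uncertainty given for Ugt1a1 holds for both. Summed over the 8 Ugt1a genes besides Ugt1a1, the level was 65.4 to 75.1 FPKM in control, 38.3 to 52.8 in HFD and 54.8 to 69.5 in HFD+Pc. With Ugt1a1 included, the sum was 106 to 119, 92.5 to 117 and 129 to 139 FPKM.

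**Figure D5:**
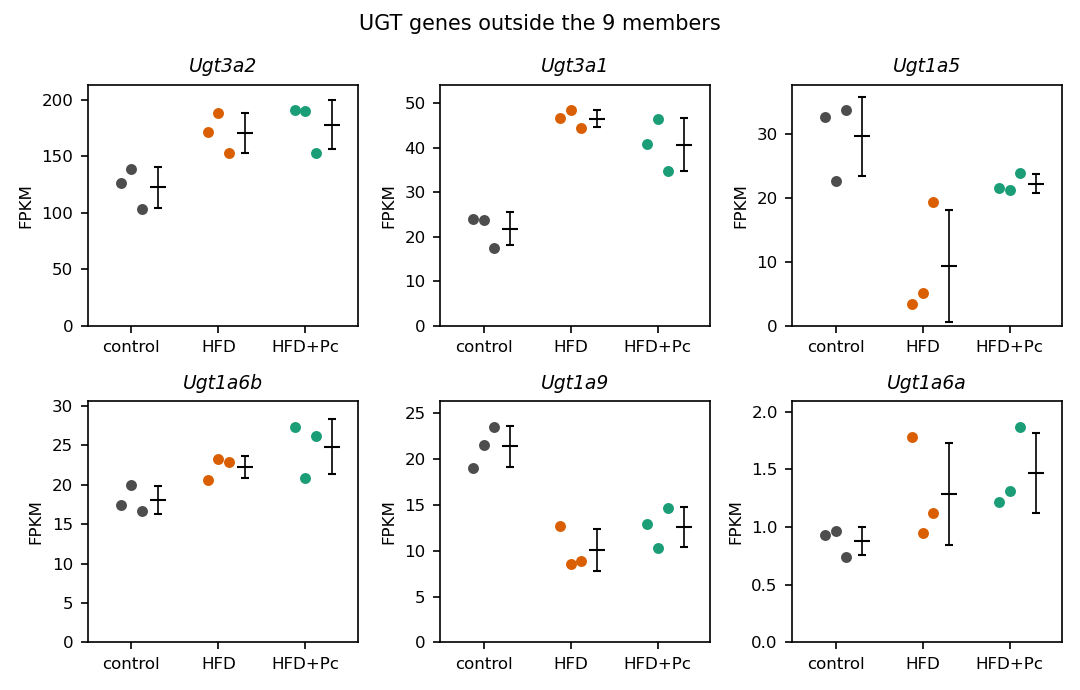
FPKM of the 6 other UGT genes that could be tested, in each library (points) with the group mean ± SD (n = 3); each vertical axis starts at 0. Ugt3a1 is higher in every HFD and HFD+Pc library than in control, Ugt1a9 is lower in all of them, and in Ugt1a5 HFD replicate 3 lies at 19.4 FPKM beside 3.49 and 5.16 in the other HFD libraries.

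Genes of the sugar donor's supply and use were followed beside the enzymes, 14 of 15 listed being testable. In HFD against control 2 rose and 1 fell (median difference of the list 0.14), and in HFD+Pc against control 5 rose and 1 fell (median 0.29). Between HFD+Pc and HFD limma called 0, with 2 at an unadjusted p under 0.05 and 0 by limma-voom. Ugdh, which oxidises UDP-glucose to UDP-glucuronic acid, went from 16.6, 12.3 and 10.4 FPKM in control to 29.3, 21.9 and 23.8 FPKM in HFD and 22.8, 26.03 and 26.7 FPKM in HFD+Pc. The HFD rise was 0.90 ± 0.16 (limma adjusted p = 0.0148), which did not stand without control replicate 2 (limma adjusted p = 0.0505), and that of HFD+Pc over control was 0.91 ± 0.16 (limma adjusted p = 0.00583). Every high-fat diet library lay above every control library.

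Entpd5, a nucleoside diphosphatase of the endoplasmic reticulum, rose in HFD by 0.49 ± 0.13 (limma adjusted p = 0.0475), a call lost without any 1 of the 9 libraries (highest limma adjusted p = 0.128). Ugp2, which makes UDP-glucose, differed by 0.21 ± 0.12 in HFD (limma adjusted p = 0.259) and rose in HFD+Pc against control by 0.50 ± 0.12 (limma adjusted p = 0.0149), lost without control replicate 1 or HFD+Pc replicate 3, with limma adjusted p up to 0.0579. Slc35d1, which carries UDP-glucuronic acid into the endoplasmic reticulum, differed by 0.13 ± 0.12 in HFD against control (limma adjusted p = 0.527). Gusb, the lysosomal beta-glucuronidase that removes glucuronic acid, fell from 9.65 ± 0.503 to 5.41 ± 0.334 FPKM in HFD (-0.73 ± 0.08, limma adjusted p = 0.00301) and stood at 6.04 ± 0.428 FPKM in HFD+Pc. That fall passed without each library in turn.

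Of 9 testable transporters of glucuronides and organic anions, 3 rose and 1 fell in HFD (median difference 0.26), and 4 rose and 1 fell in HFD+Pc against control (median 0.24). Limma called 0 between HFD+Pc and HFD (1 at an unadjusted p under 0.05, 0 by limma-voom). Abcc3, which exports glucuronides to blood, went from 41.8 ± 4.56 FPKM in control to 74.7 ± 5.38 in HFD and 76.4 ± 4.12 in HFD+Pc (0.82 ± 0.10 for HFD, limma adjusted p = 0.00467). Slco1b2, an uptake carrier that also takes up bilirubin glucuronide, rose by 0.64 ± 0.10 in HFD (limma adjusted p = 0.00947), and the uptake carrier Slco1a4 fell by 1.51 ± 0.16 (limma adjusted p = 0.00250). These 3 calls stood without each library in turn. Abcc2, the exporter of glucuronides to bile, differed by 0.26 ± 0.11 in HFD (limma adjusted p = 0.150) and rose by 0.38 ± 0.11 in HFD+Pc against control (limma adjusted p = 0.0319), lost without control replicates 1 or 4 or HFD+Pc replicates 3 or 4 (highest limma adjusted p = 0.0980).

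Of 7 genes of heme synthesis and breakdown, from which bilirubin comes, biliverdin reductases included, 1 fell in HFD (median difference -0.19) and 4 fell in HFD+Pc against control (median -0.61). By limma 0 rose in either, as at an unadjusted p under 0.05 and by limma-voom. Limma called 0 between HFD+Pc and HFD (1 lower at an unadjusted p under 0.05, 0 by limma-voom). Por, the electron donor of cytochrome P450 and heme oxygenase, fell from 127 ± 3.33 to 60.4 ± 18.5 FPKM in HFD (-1.10 ± 0.19, limma adjusted p = 0.0130). Hmox1, the inducible heme oxygenase, was lower in HFD+Pc (11.2 ± 1.90 FPKM) than in control (18.9 ± 2.44 FPKM), by a difference of -0.71 ± 0.13 (limma adjusted p = 0.00683). Both calls stood without each library in turn.

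Among 25 testable transcription factors known to act on UGT genes, 2 rose in HFD (Ahr and Nfe2l2, with a median difference of -0.07 over the list), and 3 rose and 6 fell in HFD+Pc against control (median -0.12). At an unadjusted p under 0.05, 4 were higher and 5 lower in HFD, and 4 higher and 11 lower in HFD+Pc against control. Limma-voom, which could test 24, called 3 higher and 0 lower in HFD, and 3 higher and 6 lower in HFD+Pc against control. Limma called 0 between HFD+Pc and HFD, with 1 higher and 4 lower at an unadjusted p under 0.05 and 0 by limma-voom. Ahr, the aryl hydrocarbon receptor, rose from 5.63 ± 0.638 to 9.08 ± 1.01 FPKM in HFD (0.60 ± 0.10, limma adjusted p = 0.00943) and stood at 9.63 ± 0.0278 FPKM in HFD+Pc. The Nfe2l2 rise in HFD (limma adjusted p = 0.0374) was lost in 7 of 9 fits that left out 1 library, with a limma adjusted p of up to 0.0950, and stood without control replicate 4 and without HFD+Pc replicate 1. Nr1i2 (PXR) and Nr1i3 (CAR), the xenobiotic receptors, differed in HFD by 0.15 ± 0.12 (limma adjusted p = 0.476) and -0.14 ± 0.18 (limma adjusted p = 0.644).

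Of 22 testable targets of CAR, PXR, AhR and NRF2, 3 rose and 1 fell in HFD (median difference 0.28), against 9 higher and 3 lower at an unadjusted p under 0.05 and 7 higher and 0 lower by limma-voom. In HFD+Pc against control 11 rose and 0 fell by limma (14 and 0 at an unadjusted p under 0.05, 9 and 0 by limma-voom), with a median of 0.51. Limma called 0 between HFD+Pc and HFD (3 higher at an unadjusted p under 0.05, 0 by limma-voom). Cyp2b10, the classical CAR target, went from 2.36 ± 1.33 FPKM in control to 14.00 ± 7.82 in HFD and 14.9 ± 0.752 in HFD+Pc. Its HFD rise was 2.10 ± 0.37 (limma adjusted p = 0.0139), lost without control replicates 1 or 2 (highest limma adjusted p = 0.0569). Cyp3a11, the classical PXR target, differed by 0.15 ± 0.18 in HFD (limma adjusted p = 0.624). Of 17 testable genes of sulfation and other conjugation, 1 rose (Sult2a8) and 1 fell (Sult1a1) in HFD and again in HFD+Pc against control, comparisons that share the control libraries (median differences 0.12 and 0.22). The HFD call of Sult2a8 was lost without any 1 of the 3 HFD libraries (highest limma adjusted p = 0.0784). The HFD+Pc call of Sult1a1 was lost without control replicate 4 or HFD+Pc replicates 1 or 3 (highest limma adjusted p = 0.0801). Limma called 0 of them between HFD+Pc and HFD (2 higher at an unadjusted p under 0.05, 0 by limma-voom).

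Across the 9 libraries, the 36 pairs of members correlated with Pearson's r from -0.49 to 0.97 on the log2(FPKM + 1) scale, with a median of 0.43. Ugt2b5 and Ugt2b35 had the highest r. The genes outside the family most like each member, out of 10778 ranked, were Aldh6a1 for Ugt2b5 (r = 0.980), Acbd5 for Ugt2b35 (r = 0.988), Twsg1 for Ugt1a1 (r = 0.986), Igsf5 for Ugt2b34 (r = 0.977) and Rap2a for Ugt2b36 (r = 0.975). For Ugt2b37 it was Dctn6 (r = 0.963), for Ugt2b1 Cpq (r = 0.947), for Ugt2b38 Nat8f2 (r = 0.932) and for Ugt2a3 Afmid (r = 0.919). Gclc, a glutathione synthesis gene, had rank 3 for Ugt2b34 (r = 0.966). All points share their library and its scaling, and the values are a description over 9 libraries.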

How the data were processed

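Liver RNA was extracted with Trizol and made into Illumina libraries, per the labels' protocols. HISAT2 2.0.5 and GRCm39 are named, per the submitters' processing notes. Values are the authors' FPKM per gene, as deposited and per the file headers. The counting tool, annotation and treatment of shared reads are not given in the sources used here. A gene name table gave symbols for 52093 of 53700 Ensembl identifiers. Members and gene lists were chosen with earlier results of these data known. All 9 members are named, with other UGT genes averaging at least 1 FPKM, called genes of each list (up to 3 per direction and comparison), a fixed panel, and the genes most like each member. Not every such gene is printed.

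limma 3.58.1 (R 4.3.3) was fitted to log2(FPKM + 1) over all 9 libraries, with trend and robust estimation and no covariate, and was tested on simulated data. FPKM values were whole multiples of 1 read (tolerance 0.02) for 25355 of 25831 genes above 0 with a GENCODE M21 length (98.2%). Those reads served limma-voom as an alternative, since the deposited values are not counts. Their totals, without Alb, were its library sizes, and its median HFD minus control difference over all genes was 0.04. Same-numbered libraries of different groups correlated at -0.12 to 0.05 in their deviations from group means. Transcripts were aligned with Biopython 1.88, and promoters came from RefSeq (GRCm38.p6), where 20 of 22 UGT genes matched. Ugt1a6b and Ugt3a2 were not among them. No coordinates of one build were converted to another. A gene of the transcription factor list is not reported here by name.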

Additional observations from a re-analysis of the deposited data

How the results depend on the processing

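The member calls of HFD against control are the least firm: 3 in the reported fit, 0 with no filter on low values, 1 with a minimum of 0.1 FPKM, 1 with only the 2 groups fitted, 6 at a threshold of 0.1, 6 by limma-voom, and 0 to 2 with a library left out. For all genes, 1095 became 209, 725, 659 and 1914 under the first 3 of these settings and that threshold, and 332 to 1126 with a library left out. For HFD+Pc against HFD the single member call became 0 with no filter and 0 to 1 with a library left out. There, 69 genes became 3 with no filter, 27 with the lower minimum, 113 after TPM rescaling, 22 with 2 groups, 30 without trend and robust estimation, 236 at 0.1, 119 by limma-voom and 5 to 123 with a library left out. For HFD+Pc against control, 6 members stayed 4 to 6 with a library left out, and 2538 genes became 1383 with no filter and 1396 to 2644 with a library left out.

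The replicate numbers do not pair the libraries. With a replicate block the member calls were 0, 0 and 3 in the 3 comparisons in the order above, and the gene calls 232, 3 and 1058. The summed FPKM of the 9 members differed by 291 (HFD minus control), 92.7 (HFD+Pc minus HFD) and 384 (HFD+Pc minus control), with 212 to 344, 47.1 to 155 and 305 to 446 over libraries left out. Without Ugt2b5 the first and last were 165 and 213. For the 22 UGT genes those were 211 and 279.5 without Ugt2b5, and the ranges over libraries left out were 248 to 397, 62.6 to 187 and 361 to 524.

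Among the differences given here, signs turned only in some that did not pass. For HFD minus control, with a library left out, Ugt2b1 ranged from -0.028 (control replicate 4) to 0.33, Ugt2a3 from -0.13 to 0.017 (control replicate 2) and Nr1i3 from -0.26 to 0.10 (HFD replicate 3), and the replicate block turned Ugt2b1 to -0.0025. For HFD+Pc minus HFD, Ugt2b1 ranged from -0.22 to 0.081 (HFD+Pc replicate 4), with 0.05 without HFD replicate 2 and 0.18 with the replicate block, and Ugt2b36 from -0.041 (HFD replicate 3) to 0.14, with -0.0043 after TPM rescaling. For HFD+Pc minus control, Ugt2b1 ranged from -0.10 (control replicate 4) to 0.26. The causes were not tested, although leaving out a library or adding a block also leaves less data to estimate the spread. The planned comparison of protein sequences was not run, and transcripts were compared instead. With 3 libraries a group, no group was searched for an outlying library. The fewest reads behind a member were those of Ugt2b37, 34 to 95 a library.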
